A study of Mus musculus with 4 samples.

Results

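Genes of chromatin regulators that hold, or have the nearest transcription start to, a region of altered H3K9me3 were examined after loss of Arid1a in microglia, the macrophages that settle in the embryonic brain. The 9 genes were Arid1a and Arid1b, which encode paralogous subunits of the SWI/SNF chromatin remodelling complex; Cbx5, a reader of H3K9me3; Prdm16 and Mecom, paralogous PRDM factors; the JmjC-domain genes Phf2, Kdm3b and Kdm8; and the SET-domain gene Setd5. A region was taken where the gene named in its annotation brackets, or the gene with the nearest start, was one of the 9. This gave 10 of the 5432 listed regions, in 8 of the 9 genes. Apart from Arid1a, which entered as the deleted gene, the genes were chosen by their listing in this same KO against WT comparison, so which of them have a region, and in which list, is a description and not a test.

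Microglia were sorted from the telencephalon of C57BL/6 mouse embryos labelled E14. The Arid1acKO-Cx3cr1 embryos (KO) lose Arid1a under Cx3cr1, a gene of microglia and other macrophages, and the Arid1a fl/fl embryos are labelled WT although they carry the floxed allele. H3K9me3 CUT&Tag, in which an antibody guides a transposase to the marked nucleosomes, was done on 1 KO and 1 WT library, with 1 KO and 1 WT library of control IgG beside them. The authors deposited a list of 3488 regions with more H3K9me3 in KO and a list of 1944 with less, or 64.2% and 35.8% of all listed regions. The lists hold no read counts, fold changes or p-values. Depth is therefore unknown, no difference has a replicate check, and no test between the genotypes was made. Among microglial marker genes Csf1r, the receptor that microglia need to live, held a higher region in an exon (score 6.31), and of 19 markers of other myeloid, neural, endothelial and erythroid cells none held a region, though 5 had the nearest start to one. Such lists cannot show which cells were sorted.

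H3K9me3, trimethylated lysine 9 of histone H3, is the mark of constitutive heterochromatin. It is written by SET-domain methyltransferases, bound by HP1 proteins such as the Cbx5 product, and removed by JmjC-domain demethylases. SWI/SNF complexes slide and eject nucleosomes at enhancers and promoters, and a canonical complex carries either the Arid1a or the Arid1b product. In macrophages, as in other cells, such complexes open the sites at which lineage factors bind.

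Positions are given as the authors' lists give them and were read as the GRCm38 assembly. The transcripts in the lists match GRCm38 genes, but the submitters' notes name mm9, so the build of the regions, and with it each distance to a RefSeq start, is uncertain. For Cbx5 and Mecom, RefSeq places 2 starts, and the sequences around these starts are shown because the listed regions of both genes lie far from the upstream start and inside the gene. Each is 300 bases on GRCm38.p6, 250 before the start and 50 after it, on the minus strand, with each CpG in capitals. The windows are chr15:103239803-103240102 and chr15:103215303-103215602 for Cbx5 and chr3:30509710-30510009 and chr3:30013155-30013454 for Mecom.
Cbx5, upstream start: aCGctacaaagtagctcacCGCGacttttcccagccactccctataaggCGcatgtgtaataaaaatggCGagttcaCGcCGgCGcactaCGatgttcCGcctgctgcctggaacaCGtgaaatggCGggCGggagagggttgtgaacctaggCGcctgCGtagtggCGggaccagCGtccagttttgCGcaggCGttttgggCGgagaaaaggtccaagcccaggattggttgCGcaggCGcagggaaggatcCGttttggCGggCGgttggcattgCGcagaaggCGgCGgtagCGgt
Cbx5, internal start: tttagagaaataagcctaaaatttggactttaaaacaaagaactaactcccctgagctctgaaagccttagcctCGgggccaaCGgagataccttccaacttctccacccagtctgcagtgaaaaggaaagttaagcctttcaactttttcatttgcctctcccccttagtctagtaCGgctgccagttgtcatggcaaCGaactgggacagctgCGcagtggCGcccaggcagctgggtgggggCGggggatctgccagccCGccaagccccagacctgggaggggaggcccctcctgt
Mecom, upstream start: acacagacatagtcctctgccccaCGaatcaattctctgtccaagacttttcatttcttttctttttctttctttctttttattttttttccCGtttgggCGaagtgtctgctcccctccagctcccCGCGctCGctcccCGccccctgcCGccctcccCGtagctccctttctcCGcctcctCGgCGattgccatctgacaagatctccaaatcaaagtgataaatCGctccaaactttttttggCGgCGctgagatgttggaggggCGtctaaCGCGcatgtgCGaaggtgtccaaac
Mecom, internal start: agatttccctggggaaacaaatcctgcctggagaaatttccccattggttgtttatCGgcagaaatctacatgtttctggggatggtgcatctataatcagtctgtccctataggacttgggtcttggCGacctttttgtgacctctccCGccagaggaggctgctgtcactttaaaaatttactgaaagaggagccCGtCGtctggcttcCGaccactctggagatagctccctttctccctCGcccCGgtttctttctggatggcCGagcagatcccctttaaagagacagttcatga
The upstream Cbx5 window held 29 CpG and the internal one 8. The upstream Mecom window held 19 CpG and the internal one 9. The motif counted was the dinucleotide CG, which reads the same on both strands and does not overlap itself, and 94.6% of the 32851 RefSeq promoter windows held at least 1, with a median of 7. None of the 11 windows that RefSeq gives for 8 of the genes overlapped a listed region, and over all genes 33 of the 32851 windows did. The only Setd5 window, from 113104685 to 113104984, lay inside the gene, which begins at 113077262, so its 5' end was not covered. In Cbx5 and Mecom the upstream start was therefore the richer in CpG, and neither start itself lay in a region.

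The Arid1 paralogues came first. The lists hold no read counts or expression values and so offer no check of the Arid1a deletion. The deleted gene had no region in either list. Its 77.8 kb on chromosome 4, from 133679008 to 133756769, lay between a higher region 121 kb away, nearest to Gm23158 with a score of 3.39, and a higher region 585 kb away, nearest to Slc30a2 with a score of 7.55. Regions are numbered in order of position, and 1 number between these neighbours is in neither list and was not analysed here. Arid1b, whose product takes the place of ARID1A in part of the complexes, held 1 higher region of 412 bp on chromosome 17 from 5248926 to 5249337. It lay in intron 5 of 18, 254 kb downstream of the RefSeq start, and its score was 2.52. The peak score comes from the authors, who state no scale, and serves here only to rank regions within a list. In the higher list 43.6% of regions scored lower than the Arid1b region and 223 shared its score, so it stood at the middle of the list. The nearest start was that of Gm15599, 137 kb away, and no other listed region lay within 444 kb.

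Cbx5 encodes HP1 alpha, which binds H3K9me2 and H3K9me3 through its chromodomain. Its region was in the lower list, on chromosome 15 from 103213916 to 103214441, 526 bp wide and with a score of 2.08. Of the lower list, 17.9% scored below it and 90.0% was narrower, so the region was wide for its list and low in score. The authors placed it in the promoter class, within 1 kb of a start, at 864 bp from the start of a shorter Cbx5 transcript, close to the internal RefSeq start shown above. The middle of the region lay 25.7 kb downstream of the upstream RefSeq start, which is 24.5 kb from the internal one. The upstream start faces Hnrnpa1, an RNA-binding protein gene whose RefSeq entry begins 39 bp beyond the end of Cbx5. The region in the promoter class thus lay beside the internal start, not the upstream one. The closest listed regions, at Hoxc4 (180 kb away, score 4.59) and in Gtsf2 (225 kb away, score 4.02), were both in the higher list.

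Among the PRDM factors, Prdm16 held more regions than any other of the 9 genes, 2 higher and 1 lower. The product is a zinc finger factor of brown fat, haematopoietic stem cells and the radial glia of the developing cortex, and its PR domain has been reported to methylate H3K9. The higher region nearest to its 5' end lay on chromosome 4 from 154535538 to 154536115, in intron 1 of 16, 101 kb downstream of the start, with a score of 3.76. Next came the lower region, from 154510597 to 154510948 in intron 2, with a score of 3.80. The other higher region, from 154417090 to 154417452 in intron 3, scored 1.95. In the gene's own direction the order was therefore higher, lower, higher, over 119 kb, with gaps of 24.6 kb and 93.1 kb. The regions bear consecutive numbers, so no further numbered region lies between them. Within their own lists, 77.0% of higher regions scored below the region in intron 1 and 77.3% of lower regions below the region in intron 2, while 20.2% scored below the region in intron 3. That last score, 1.95, was the most frequent in the higher list, shared by 534 regions. A further lower region, with Arhgef16 as its nearest start and a score of 4.22, lay 3.7 kb beyond the 3' end of Prdm16.

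Mecom, which encodes the PRDM3 and EVI1 proteins of haematopoietic stem cells, held 1 lower region on chromosome 3 from 30153332 to 30153711, 380 bp wide. Its score of 1.73 was above 6.58% of the lower list. The upstream start gives the long product with the PR domain and the internal start the shorter EVI1 form without it. The region lay in intron 1 of 15 of a Mecom transcript, 356 kb downstream of the upstream RefSeq start and 140 kb upstream of the internal one, thus between both. The nearest start was that of Gm38066, 8.18 kb away. Both PRDM genes therefore had 1 lower region, in intron 2 of Prdm16 and intron 1 of Mecom, and Prdm16 had higher regions as well. Both were chosen for having a region, and 35.8% of all listed regions were lower.

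The JmjC genes were split between the lists. Phf2, whose product binds H3K4me3 through a PHD finger and is reported to remove methyl groups from H3K9me2, held a higher region on chromosome 13 from 48861943 to 48862389, in intron 1 of 21. Its score of 4.20 was above 82.7% of the higher list. It lay 8.72 kb downstream of the Phf2 start, from which the opposite-strand transcript Phf2os1 also begins close by. The Phf2 promoter window held 63 CpG, and its C and G content was 87.0%, so that start is a dense CpG island.

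Kdm3b encodes a demethylase of H3K9me1 and H3K9me2. It held a higher region on chromosome 18 from 34825205 to 34825606, in intron 15 of 23, 15.0 kb from the start of Reep2, a gene of the endoplasmic reticulum. Its score of 4.72 was the highest of the 6 higher regions and above 88.3% of the higher list. The next listed region, 61.2 kb away with Egr1 as its nearest start, was also higher (score 5.41). Kdm8, also known as Jmjd5, encodes a JmjC protein with reported hydroxylase activity. It had 1 lower region on chromosome 7 from 125452157 to 125452446, the narrowest of the 10 at 290 bp. The authors classed it as 5' UTR although it lay 7.48 kb from the start, 40.4% of the way along the 19.0 kb gene. Its score of 1.90 was above 10.9% of the lower list, and 98 lower regions shared it. Thus the regions of Phf2 and Kdm3b, the H3K9 demethylase genes among the 9, were both higher and above 82.7% of their list or more. That of Kdm8 was lower and near the bottom of its own list. Of all listed regions, 64.2% were higher and 35.8% lower.

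Setd5 encodes a SET-domain protein whose loss in humans causes intellectual disability and whose enzymatic activity is debated. It held a higher region on chromosome 6 from 113133619 to 113134095, in intron 16 of 21, 74.3% of the way along the gene. The score was 4.52, above 85.6% of the higher list. The nearest start to the region was that of a Setd5 transcript, 28.6 kb away. That start lies inside the gene, near the RefSeq start there, and not at the 5' end of Setd5. A higher region 31.0 kb further on, with Lhfpl4 as its nearest start, scored 1.48.

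**Figure D1:**
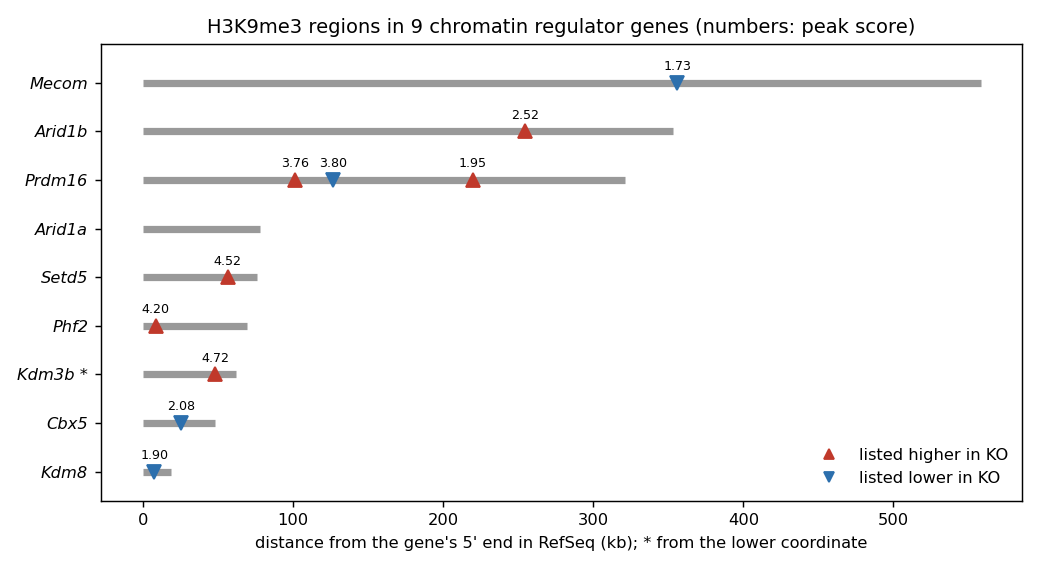
Grey bars show the 9 genes to scale from the RefSeq 5' end (Kdm3b, marked by an asterisk, from its lower coordinate, since its strand was not in the tables used), with distance in kb on the x axis. Red triangles are regions listed higher in KO and blue inverted triangles regions listed lower, each with its peak score; Prdm16 carries 3 regions in the order higher, lower, higher, and Arid1a none.

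Across the 9 genes, 6 regions were higher and 4 lower in KO, beside 64.2% higher and 35.8% lower among all 5432 listed regions. The share higher was 60.0% (exact 95% binomial interval 26.2 to 87.8, counting error only). The interval is wide and includes the share of the whole series. By the gene that holds the region, 6 were higher and 2 lower, all of these in introns, where 63.6% of the 1945 regions in introns were higher. By nearest start the genes had 1 higher region, in Setd5, and 2 lower, at Cbx5 and Kdm8. For 7 of the 8 regions in introns another gene's start was nearer than that of the gene holding it, as it was for 57.1% of all regions in introns. Intron 1 held 3 of the 8, in Prdm16, Mecom and Phf2, beside 26.6% of all regions in introns.

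The scores of the higher regions ran from 1.95 at Prdm16 to 4.72 at Kdm3b, with a median of 3.98, beside a median of 2.52 over the higher list. Of these 6 regions, 5 scored at or above the median of the list and 4 above its upper quartile, 3.69. Arid1b counts there by a tie at the median, a score that 223 regions held and below which 43.6% of the list scored. The scores of the lower regions ran from 1.73 at Mecom to 3.80 at Prdm16, with a median of 1.99, beside 2.66 over the lower list. Of these 4 regions, 3 scored below the lower quartile of the list, 2.19, and Prdm16 alone scored above the upper quartile, 3.61. Scores took few values, 190 in the higher list and 165 in the lower, of which 17 occur in both, so scores were not set side by side across lists. Widths ran from 363 to 578 bp in the higher regions (list median 404 bp) and from 290 to 526 bp in the lower ones (list median 357 bp).

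**Figure D2:**
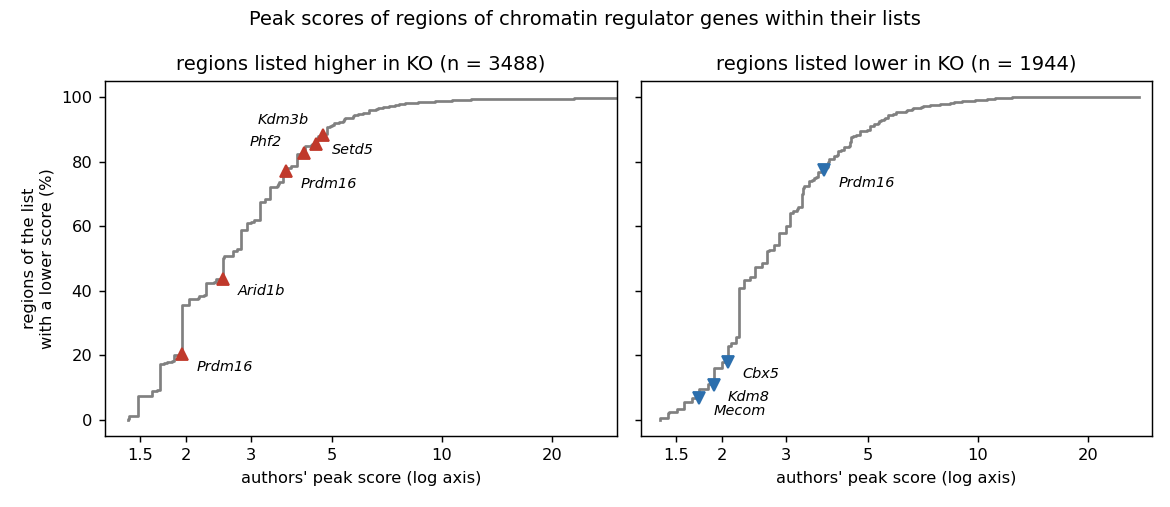
The grey step curves give, for each peak score on the log x axis (shown up to 30), the percentage of regions of the list that score lower, for the higher list on the left and the lower list on the right. Triangles mark the regions of the 9 genes: Kdm3b, Setd5 and Phf2 score above 82.7% or more of the higher list, and Cbx5, Kdm8 and Mecom above 17.9% or less of the lower list.

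Long genes held regions more often than short ones, and length differs widely among the 9. Of 21887 protein-coding genes in RefSeq, 7.87% overlapped a listed region, 5.26% one of the higher and 3.45% one of the lower list. The share was 1.62% among genes under 25 kb, 9.42% from 25 to 100 kb, 29.8% from 100 to 300 kb and 65.4% from 300 kb upward. Arid1b (353 kb), Prdm16 (321 kb) and Mecom (558 kb) belong to the longest class, in which 364 of 557 genes had a region and 85 had 3 or more. Cbx5, Phf2, Kdm3b, Setd5 and Arid1a are between 25 and 100 kb, and Kdm8 is under 25 kb, the class in which a region was rare. Per 100 kb of gene, Prdm16 held 0.934 regions (exact 95% Poisson interval 0.193 to 2.73), Arid1b 0.283 (0.00716 to 1.58), Mecom 0.179 (0.00453 to 0.998) and Kdm8 5.25 (0.133 to 29.3), beside 0.211 over all protein-coding genes. Cbx5 held 2.07 per 100 kb, Phf2 1.45, Kdm3b 1.6 and Setd5 1.31. These genes were chosen for having a region, so neither a rate above the value for all genes nor an interval that includes it is a result.

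**Figure D3:**
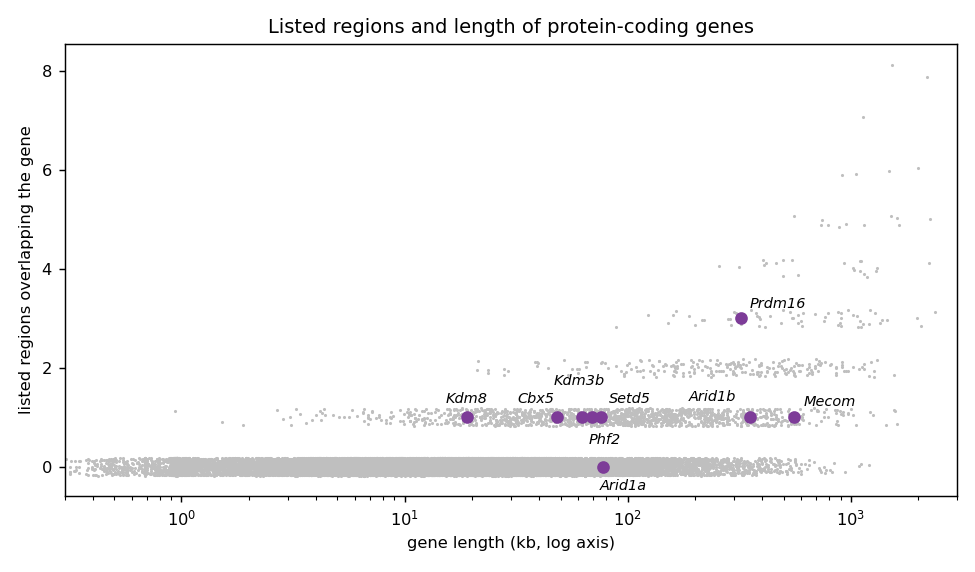
Each grey point is a protein-coding gene, with its length in kb on a log axis and the number of listed regions overlapping it, spread slightly in height to separate points. The 9 genes are in purple: Prdm16 overlaps 3 regions, Arid1a none and the other 7 overlap 1 each.

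Prdm16 shared its pattern with other genes. In all, 29 other genes held 2 higher regions and 1 lower. The 5 closest to Prdm16 in length were Shisa6 (316 kb), Plce1 (304 kb), Col22a1 (355 kb), Csgalnact1 (379 kb) and Klhl1 (414 kb). The lower region lay between the higher ones in Plce1, Csgalnact1 and Klhl1, as in Prdm16, and at an end in Shisa6 and Col22a1. The Klhl1 regions scored 5.73, 2.66 and 5.08 in order of position, and those of Plce1 1.69, 1.58 and 1.95. Of 1645 genes that held a region by annotation, 160 held regions of both lists and 82 held 3 or more.

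The wider families of these genes are given from 10 lists with 222 genes in all, the 9 included. By the gene that holds the region, 16 genes held 13 higher and 6 lower regions, or 68.4% higher (43.4 to 87.4), beside 64.2% of all regions. By overlap with RefSeq genes, 9.01% of the 222 had a region, beside 7.87% of protein-coding genes, and their median length was 45.6 kb, beside 17.2 kb. These shares include the 9 genes, of which 8 were chosen for having a region. Without the 9, an alternative chosen after the data were seen, 12 of 213 genes (5.63%, exact 95% interval 2.94 to 9.63) overlapped a region. Taking out 8 genes chosen for having a region lowers this share by construction, so it is not set beside the 7.87%. By annotation, 10 of the 213 held 7 higher and 4 lower regions.

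Among 31 SWI/SNF subunit genes, Arid1b alone held or lay nearest to a region, or 3.23%. Over all protein-coding genes, 7.87% overlapped one. Of 23 genes of other remodellers, Chd2 held a higher region in its last intron (score 1.48), and Chd9 (3.92), in intron 1, and the ISWI ATPase gene Smarca1 on X (4.47) each held a lower one. These 3 genes are 13.0% of their list, beside the same 7.87%, and 35.8% of all listed regions were lower. Chd2 (115 kb) and Chd9 (226 kb) belong to the class of 100 to 300 kb, in which 29.8% of genes had a region. Of 13 genes of H3K9 methyltransferases and their partners, Prdm16 and Mecom alone had regions (15.4%), and both were chosen for having one. Suv39h1, Suv39h2, Setdb1, Ehmt1 and Ehmt2, which encode the main H3K9 methyltransferases, had none, like most protein-coding genes. Of the 22 reader and heterochromatin genes, Cdyl2, whose product carries a chromodomain, had a lower region in intron 1 (5.08) beside that of Cbx5. Both genes with a region in this list were thus lower, as were 35.8% of all listed regions, while Cbx1, Cbx3 and Trim28 had none. The 2 genes, of which Cbx5 was chosen for its region, are 9.09% of the list, beside 7.87% of all protein-coding genes.

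Of 11 H3K9 demethylase genes, Phf2 and Kdm3b had regions by annotation. By overlap with the RefSeq gene, Jmjd1c also had 1 higher region (3.69), which the authors placed in the promoter class of Reep3. All 3 genes belong to JmjC families, and their regions were higher, as were 64.2% of all listed regions. Phf2 and Kdm3b were chosen for having a region, and Jmjd1c was added after its values were seen. The Kdm4 genes, whose products act on H3K9me3 itself, had none, and only 7.87% of all protein-coding genes overlapped one. Of 22 genes of other JmjC and LSD1 proteins, the H3K4 demethylase gene Kdm5b held a higher region in intron 1 (2.52), beside the lower one of Kdm8. Of 28 other SET-domain genes, Smyd5 had a higher promoter region (1.48) and Smyd2 a lower intergenic one 98.5 kb away (5.57), beside Setd5. None of 12 other PRDM genes had a region, as was the case for most protein-coding genes. Prdm16 and Mecom, both chosen for having a region, were thus the only genes of that family with one. Both belong to the class of 300 kb upward, in which 65.4% of genes had one.

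Of 32 Polycomb genes, Asxl3 (3.17) held a higher region, L3mbtl4 a higher (2.69) and a lower one (1.90), and by nearest start Rbbp7 had a higher (1.95) and Cbx8 a lower region (1.90). Of 28 genes of histone deacetylases and acetyltransferases, the MYST acetyltransferase gene Kat6a had 2 higher regions, one inside the gene (1.51) and one intergenic (4.54). Its paralogue Kat6b (2.27) and Hdac9 (2.27) held a higher one each, and Hdac2 had a lower intergenic one 35.5 kb away (3.45). By overlap alone, Sirt2 also had a higher region (1.48), placed by the authors in the promoter class of Rinl. By overlap, 6.25% of the Polycomb genes and 14.3% of the deacetylase and acetyltransferase genes had a region, beside 7.87% of all protein-coding genes. Of all listed regions, 64.2% were higher and 35.8% lower, and no difference of either list from these shares was tested.

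**Figure D4:**
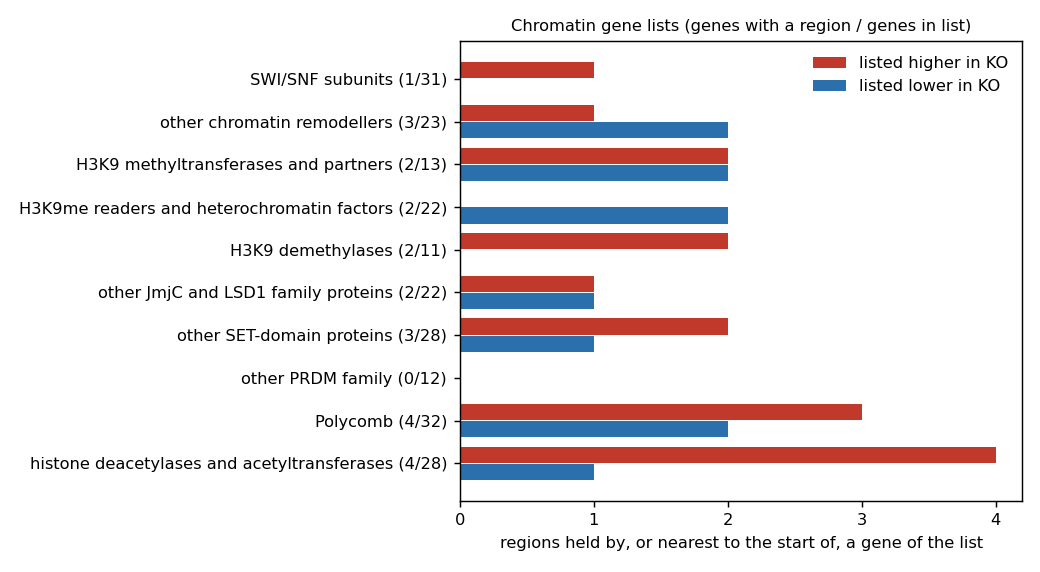
Bars count regions held by a gene of each of the 10 lists, or with its start nearest, red for regions listed higher in KO and blue for regions listed lower. Genes with a region and genes in the list stand in brackets. The H3K9 demethylase list has 2 higher regions and 0 lower, the reader list 0 higher and 2 lower. Of all listed regions, 64.2% were higher and 35.8% lower, and the bars include genes chosen for having a region.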

How the data were processed

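H3K9me3 and control IgG CUT&Tag libraries were made from 100000 sorted cells each with 14 PCR cycles, 1 library per genotype and antibody, per the labels' protocols. Per the submitters' processing notes, FastQC, Bowtie2 2 and CASAVA 1.4 were used and mm9 was a build, with no role or order given. The authors deposited 2 lists of regions with a peak score of unstated scale. For the peak caller, the threshold, the use of IgG, the pooling of embryos and the annotation tool, the sources used here give nothing. Of 3852 regions whose nearest-start symbol is in RefSeq, the transcript overlapped that GRCm38 gene in 3842 (99.7%), so coordinates were read as GRCm38. This checks the transcripts and not the regions, whose build stays uncertain.

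Host genes were read from the annotation brackets. Overlap of at least 1 bp used RefSeq genes of GRCm38.p6, in which all 222 genes of the lists matched by symbol. Promoter sequences are those of RefSeq, GRCm38.p6, and 8 of 9 genes matched. Intervals are exact (Clopper-Pearson or Poisson, 95%). The design foresaw no test, and region counting was tested on simulated data. The genes and lists were chosen with earlier results of these data known. The named genes were the 9, all genes of the lists with a region, genes of the nearest starts and neighbouring regions, and the 5 genes most like Prdm16, and Jmjd1c, Sirt2 and Hnrnpa1 were added after their values were seen. Some marker results are not reported here. Scripts used pandas 2.3.3, scipy 1.17.1, numpy 2.4.6 and, for figures, matplotlib 3.10.9, under Python 3.11.15.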

Additional observations from a re-analysis of the deposited data

How the results depend on the processing

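For the 9 genes, the count of higher regions depended most on how a region was tied to a gene, and the count of lower regions most on the score. By nearest start alone there were 1 higher and 2 lower regions, against 6 and 4, and by the holding gene alone the lower count was 2. Overlap with the gene body gave 6 and 4, and with 10 kb on either side 6 and 5, the added region being the one beyond the 3' end of Prdm16. With scores at or above the median of the list, 5 higher regions were left and 1 lower, that of Prdm16. A width of at least 300 bp left 6 and 3, and merging within 10 kb changed neither count. For the 222 genes of the lists, the higher count of 13 was 8 by nearest start, 8 with scores at or above the median and 7 without the 9 genes, and the lower count of 6 ran from 4 to 8. No paired analysis was possible because each group has 1 library. With no counts per library, neither depth nor counting error of a single region can be given.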
